A study of Homo sapiens with 5 samples.

Results

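The 4 HOX gene clusters were examined for peaks of BG4, an antibody fragment that binds folded G-quadruplex DNA, in 4 deposited peak lists of LNCaP cells. A peak belonged to a cluster when its summit lay in the window set for that cluster on the hg19 build. The windows were chromosome 7 from 27130000 to 27250000 for HOXA (120 kb), chromosome 17 from 46600000 to 46815000 for HOXB (215 kb), chromosome 12 from 54330000 to 54450000 for HOXC (120 kb) and chromosome 2 from 176950000 to 177060000 for HOXD (110 kb). Together they spanned 565 kb and stood for 38 HOX genes, 10 in HOXA, 10 in HOXB, 9 in HOXC and 9 in HOXD. Overlapping peaks of the lists formed 4 regions in these windows, out of 7520 on chromosomes 1 to 22, X and Y.

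G-quadruplexes (G4s) are DNA structures in which guanines of several short runs pair in stacked planes. The HOX genes encode homeodomain transcription factors that set position along the body axis. Within a cluster the order of the genes follows the order in which they are used along that axis, and Polycomb and Trithorax proteins hold whole stretches of a cluster silent or active. HOXB13, at one end of HOXB, is a lineage factor of the prostate epithelium.

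LNCaP is an established androgen-sensitive line of prostate cancer cells. The series holds 4 BG4 pull-downs and 1 input, all from LNCaP chromatin fixed with formaldehyde, with no other genotype or treatment named in the labels. The input has no list of its own. Separate cultures are not named in the labels, and p-values therefore measure only a spread between pull-downs that may be technical. The lists held 1640 to 6476 peaks on these chromosomes, the most in replicate 1, and the median peak of a list rested on 14 to 16 reads at its summit. RNA was not measured, so which HOX genes these cells transcribe was not analysed here.

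The promoter sequences show that the 2 clusters without a BG4 peak are not without G-rich sequence. A motif of 4 runs of at least 3 G, with 1 to 7 bases of any kind between runs, was searched on both strands of the RefSeq promoters (250 bases before to 50 bases after a gene's start, GRCh38.p14). In the table, 9 of the 10 HOXA genes and 8 of the 9 HOXD genes had a promoter, against 1 of 10 in HOXB and 2 of 9 in HOXC. The motif lay in 3 of 16 HOXA promoters, those of HOXA3, HOXA6 and HOXA13, and in 3 of 8 HOXD promoters, those of HOXD1, HOXD12 and HOXD13. Over all 35116 promoters in the table the share was 25.0%, against 18.8% in HOXA and 37.5% in HOXD, so neither count stands far from the background. For HOXB and HOXC fewer than 80% of the genes had a promoter, so no share is given. In HOXB the motif lay upstream of HOXB1. The table is on another build than the peaks, and the 2 were not matched by position.

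The runs below are read 5′ to 3′ on the gene's own strand, with the motif in capitals and up to 12 bases either side. They are shown because those of HOXA and HOXD belong to clusters in which no list had a peak, with that of HOXB1 beside them. C runs stand for G runs on the opposite strand. The chromosome positions in brackets are those of the whole run shown, with the bases either side, and not of the motif alone. Counted from the transcription start, the motif of HOXA13 runs from -230 to -198 (chr7:27200277-27200333, minus strand), that of HOXA3 from -51 to -34 (chr7:27113864-27113905, minus strand) and that of HOXA6 from -218 to -201 (chr7:27147963-27148004, minus strand). The motif of HOXD13 runs from -214 to -184 (chr2:176092495-176092549, plus strand), that of HOXD12 from -149 to -127 (chr2:176099634-176099680, plus strand) and that of HOXD1 from -227 to -206 (chr2:176188429-176188474, plus strand). The motif of HOXB1 runs from -55 to -30 (chr17:48531029-48531078, minus strand).
HOXA13: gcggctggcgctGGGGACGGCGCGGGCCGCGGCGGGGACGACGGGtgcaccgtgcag
HOXA3: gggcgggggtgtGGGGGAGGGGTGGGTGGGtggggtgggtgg
HOXA6: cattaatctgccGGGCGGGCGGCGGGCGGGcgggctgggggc
HOXD13: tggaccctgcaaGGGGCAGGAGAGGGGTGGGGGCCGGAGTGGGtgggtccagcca
HOXD12: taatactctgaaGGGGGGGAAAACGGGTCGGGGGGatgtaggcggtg
HOXD1: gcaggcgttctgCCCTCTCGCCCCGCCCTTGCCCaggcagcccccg
HOXB1: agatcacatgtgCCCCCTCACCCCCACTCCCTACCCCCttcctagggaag

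Of the promoters shown, each with 1 motif, HOXA3 held the most matches, 3 on its own strand and 1 on the other, and HOXD13 held 3. The 3 on the own strand of HOXA3 follow one another from -75 to -14. The gaps between them fit the 1 to 7 bases allowed between runs, so they are parts of a continuous stretch of G runs. HOXA13 held another match from -149 to -121 and HOXD1 another from 6 to 36, both on the gene's own strand. HOXA13 and HOXD13 stand at the ends of their clusters used hindmost in the body, in limb and genital development, and HOXA3 and HOXD1 belong to the parts used further forward. A motif match describes letters and not a folded structure, and a window without one says only that these letters are absent from it.

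**Figure D1:**
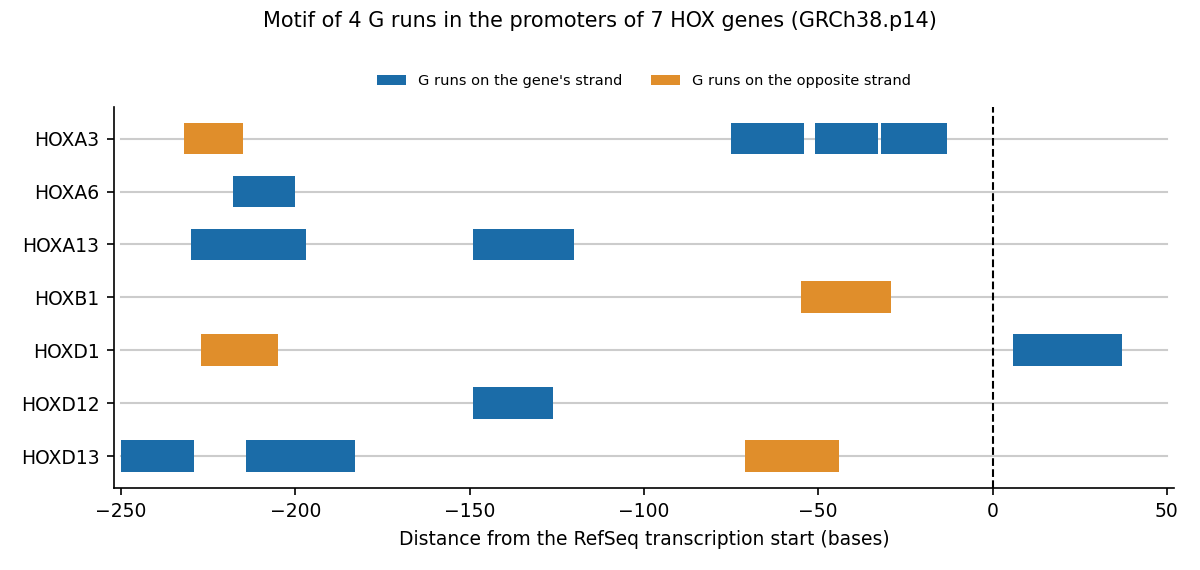
Position of each motif in 7 HOX promoters of HOXA, HOXB and HOXD that held one, in bases from the RefSeq transcription start (dashed line), in blue for G runs on the gene's strand and in orange for the opposite strand. HOXA3 has the most matches with 4, of which those on its own strand form a continuous stretch of G runs, and 1 motif of HOXD1 lies after the start.

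Peaks lay in HOXC in every list, in HOXB in 2 lists, and in HOXA and HOXD in none. Replicate 1 had 1 peak in HOXB and 2 in HOXC, replicate 2 had 1 in HOXC, replicate 3 had 1 in HOXB and 1 in HOXC, and replicate 4 had 1 in HOXC. That gave 1.75 ± 0.96 peaks per list over the 4 clusters (SD, n = 4), or 3.10 ± 1.69 per Mb. Of the 4 merged regions, 1 was found by all 4 lists and 3 by a single list. Of all 7520 merged regions, 886 were found by all 4 lists and 3554 by at least 2, and the remainder by a single list. Regions of a single list are thus common over the whole series, and 4 regions are too few to set against it. In HOXC the density was 16.7 peaks per Mb in replicate 1 and 8.33 in each of the others. In HOXB it was 4.65 in replicates 1 and 3 and 0 in replicates 2 and 4.

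These counts were read against windows of the same kind over the genome. Of all windows of 100 kb, 16.5% held at least 1 merged region, 9.11% at least 1 consensus region (found by at least 2 lists) and 2.63% at least 1 region of all 4 lists. On chromosome 7, 19.6% of windows of the length of HOXA held at least 1 merged region, and on chromosome 2, 13.9% of windows of the length of HOXD did. An empty window is thus the usual case on both chromosomes. On chromosome 17, 34.3% of windows as long as HOXB held at least 2 merged regions, the number in HOXB. On chromosome 12, 7.18% of windows as long as HOXC held at least 2, the number in HOXC.

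**Figure D2:**
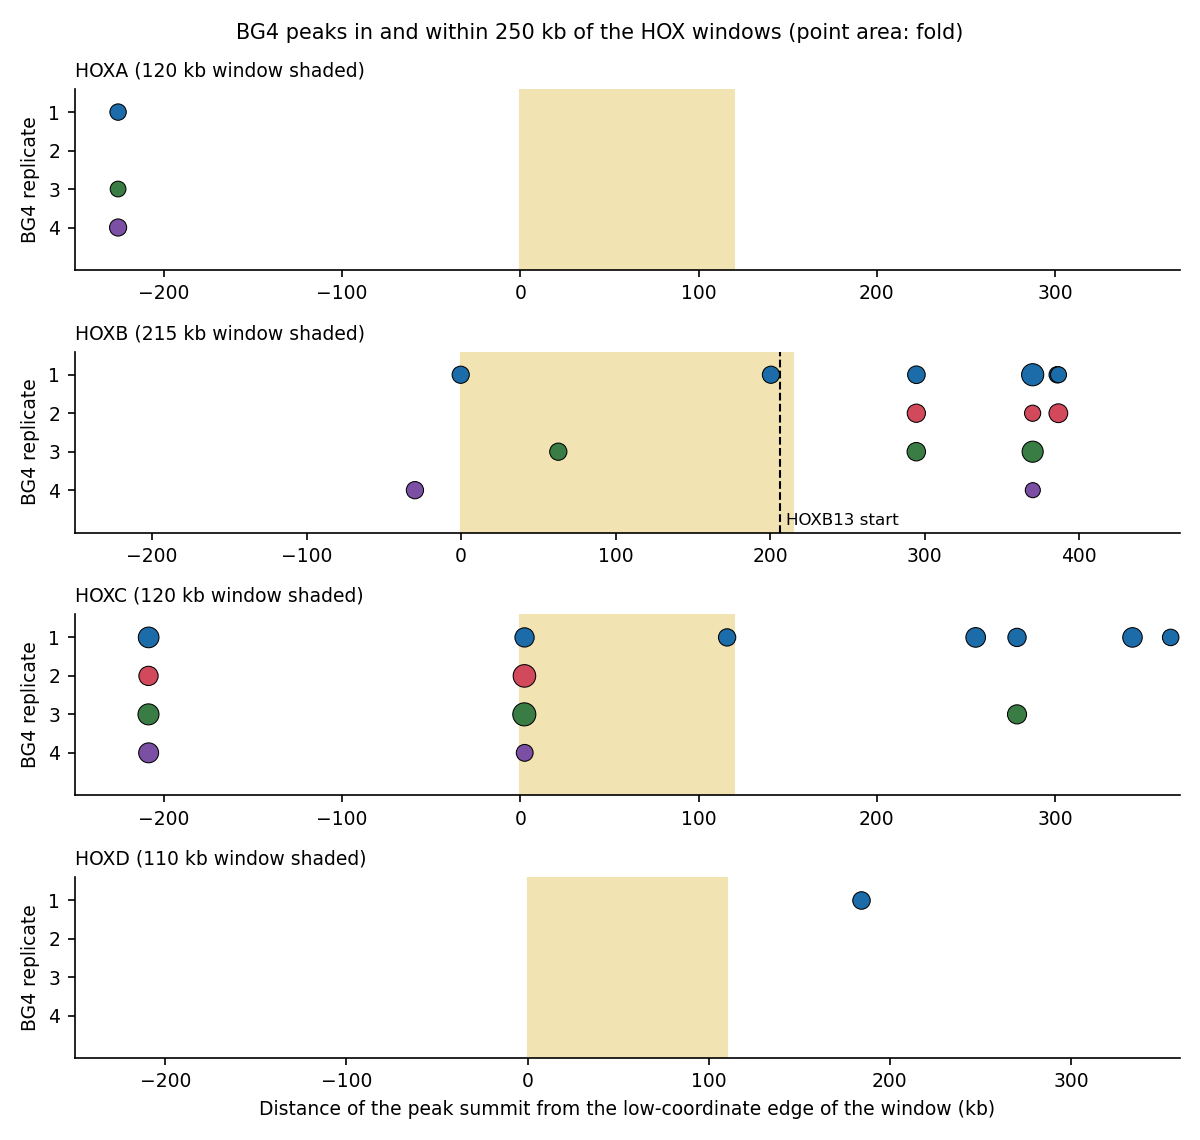
BG4 peaks in and within 250 kb of each HOX window (shaded), by replicate, against the distance of the summit from the low-coordinate edge of the window in kb; point area is proportional to the deposited fold. HOXC holds a peak 2.27 to 2.49 kb inside its edge in all 4 replicates, the windows of HOXA and HOXD are empty, and the replicate 1 peak at the edge of HOXB lies just outside it.

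The region of all 4 lists lay in HOXC, on chromosome 12 from 54332092 to 54332781. Its summit in the strongest list was 2.27 kb inside the low-coordinate edge of the window, at the end where the RefSeq gene order begins with HOXC13, a factor of hair and nail growth, followed by HOXC12 and HOXC11. Which gene or exon it covers was not analysed here, because the gene table is on another build. The peaks had 339 bp in common, and their summits lay within 222 bp of each other. The peaks of replicates 1 to 4 were 690, 384, 533 and 484 bp wide, each above the median width of its list (322 to 346 bp).

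The authors' deposited fold of this HOXC region over local background was 7.11, 9.76, 10.2 and 5.44 in replicates 1 to 4 (mean 8.13 ± 2.25, SD, n = 4). A fold is relative to its own list, so its place within the list is given beside it. In replicates 2 and 3 the region was among the stronger peaks, with 88.5% and 89.7% of the list at or below its fold. In replicate 1 that share was 63.0%, and in replicate 4 it was 23.3%. The reads at the summit numbered 18, 18, 20 and 12 in replicates 1 to 4, over a local background 1.41 to 1.92 times the lowest of the list. The deposited −log10 q was 9.69, 13.4, 15.2 and 4.63. Replicate 4 was thus the weakest in fold, reads and q, and replicate 3 the strongest. Among the 886 regions found by all 4 lists, 48.2% had a median fold percentile at or below that of the HOXC region, so it was an ordinary member of that set.

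A further HOXC region came from replicate 1 alone, on chromosome 12 from 54445916 to 54446225. It lay 3.94 kb inside the high-coordinate edge, the end where the gene order has HOXC4, HOXC5 and HOXC6, which act further forward in the trunk than HOXC13. Its fold was 5.74, with 37.4% of the list at or below it, and 12 reads lay at its summit. The 2 HOXC regions stood at opposite ends of the window, with 113 kb between them in which no list had a peak. Outside the window, the nearest region on the HOXC13 side, from 54121182 to 54121762, was found by all 4 lists, with folds of 8.19, 7.14, 8.48 and 7.63 in replicates 1 to 4. The nearest on the other side, from 54585390 to 54585745, was found by replicate 1 alone, with a fold of 7.39 and 16 reads.

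In HOXB the peaks of replicates 1 and 3 were different regions. That of replicate 1 spanned 46800313 to 46800622 on chromosome 17, with a fold of 5.65, a −log10 q of 5.35 and 12 reads at the summit. That of replicate 3 spanned 46662836 to 46663085, with a fold of 5.69, a −log10 q of 5.17 and 12 reads. Both stood below the middle of their lists, with 35.0% and 31.1% of peaks at or below their folds. Their widths, 310 and 250 bp, were below the list medians of 346 and 325 bp. Just outside the window, a replicate 1 peak from 46599554 to 46599918 had its summit 237 bp before the low-coordinate edge, at the HOXB1 end of the gene order, with a fold of 5.67 and 11 reads. The HOXB peaks inside the window lay 62.9 and 200.5 kb from that edge. Replicate 4 had a peak further out, from 46569996 to 46570275, with a fold of 5.71 and 10 reads.

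The 3 regions of single lists rested on 12 reads each, over local backgrounds of 1.26 to 1.30 reads. At backgrounds of 1.2 to 1.5 reads, the weakest peak in a list had 7 to 9 reads. A region missing from a list may therefore hold signal below that level, and its absence is not shown. All 4 lists were called against 1 input, so a region found in several lists is not wholly independent evidence.

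**Figure D3:**
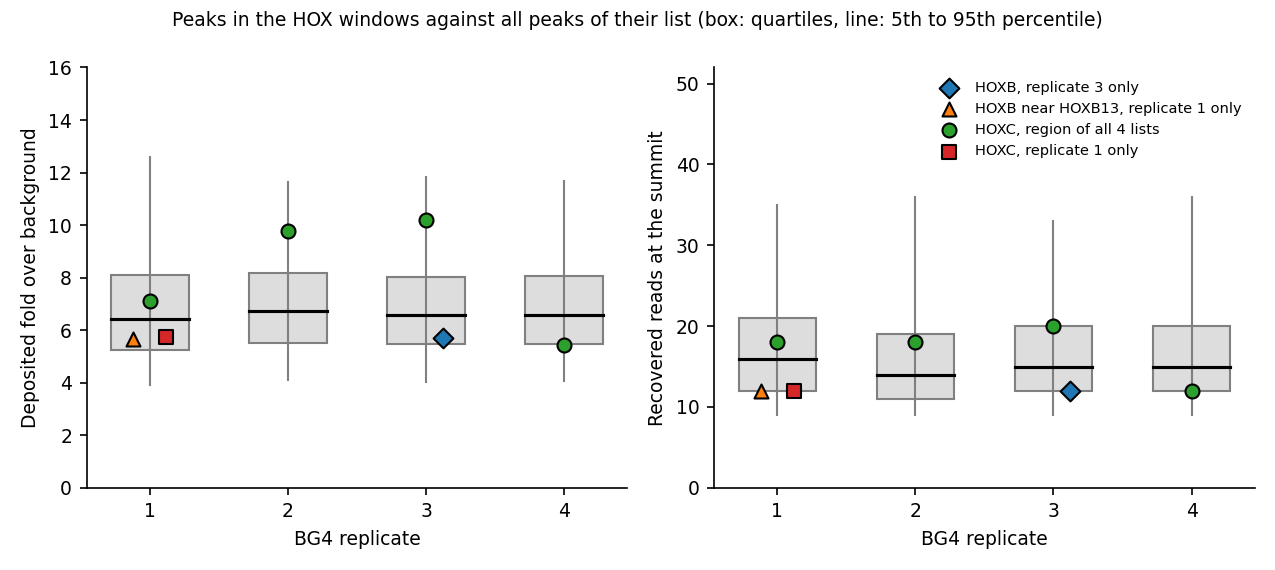
Deposited fold (left) and recovered summit reads (right) of the peaks in the HOX windows, by BG4 replicate, over the spread of all peaks of the same list (box, quartiles with the median; line, 5th to 95th percentile). The HOXC region of all 4 lists lies above the box in fold in replicates 2 and 3 and just under it in replicate 4, and the regions of single lists all have 12 reads.

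HOXB13 had no BG4 peak over its start, at 46806111 on chromosome 17, in any of the 4 lists. No peak summit lay within 5 kb of it. The nearest summit was 5.62 kb away in replicate 1, the HOXB region from 46800313 described above. It lay on the low-coordinate side of the start, the side of HOXB9 in the gene order, and whether it falls inside HOXB13 was not analysed here. In the other lists the nearest summit lay beyond the window on the far side of HOXB13, at 88.5 kb in replicate 2, 88.4 kb in replicate 3 and 164 kb in replicate 4. Replicates 2 and 3 share that nearest region, from 46894395 to 46894760, which replicate 1 also had, with folds of 5.95, 6.38 and 6.55 in replicates 1, 2 and 3. Within 10 kb of the HOXB13 start there was therefore 1 peak in 1 of 4 lists.

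The windows of HOXA and HOXD lay wholly inside stretches free of peaks in all lists. Around HOXA this stretch ran from 26904546 to 27702408 on chromosome 7, 798 kb. Around HOXD it ran from 176033421 to 177134018 on chromosome 2, 1101 kb. Stretches at least as long as that of HOXA made up 66.5% of all peak-free length, and those at least as long as that of HOXD 59.6%, so a position in the genome often lies in such a stretch. Counted one by one, 11.3% and 8.39% of the 7496 stretches were at least as long. The region below HOXA was found by replicates 1, 3 and 4, with folds of 5.15, 4.75 and 5.64 and a background 4.01 to 4.27 times the lowest of its list. The region above it was found by replicates 1 and 3, with folds of 9.93 and 10.7. The region below HOXD was found by replicates 1, 2 and 3, with folds of 9.997, 7.96 and 10.5, and the one above it by replicate 1 alone, with a fold of 5.88 and 10 reads.

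The flanks of HOXB and HOXC were denser in peaks than those of HOXA and HOXD in every list. Within 1 Mb either side, peaks numbered 1.25 ± 1.04 per Mb around HOXA, 6.50 ± 3.72 around HOXB, 7.50 ± 3.63 around HOXC and 0.50 ± 0.41 around HOXD (SD, n = 4 lists). Over the genome the density was 1.16 ± 0.73 per Mb. The flanks of HOXC were uneven, with 18, 7, 16 and 11 peaks on the low-coordinate side in replicates 1 to 4, against 6, 0, 1 and 1 on the other. The 2 clusters that held peaks were those with the dense flanks.

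The 4 clusters together were lower in density than their flanks and higher than the genome in every list. In replicate 1 the clusters had 5.31 peaks per Mb and the flanks 6.88. In the same order, replicate 2 had 1.77 and 2.13, replicate 3 had 3.54 and 4.0, and replicate 4 had 1.77 and 2.75. The difference was -0.84 ± 0.56 peaks per Mb (SD, lower in 4 of 4 lists; two-sided exact sign-flip permutation test over lists, p = 0.13). Against the genome it was 1.94 ± 0.98 peaks per Mb (SD, higher in 4 of 4 lists; same exact test, p = 0.13). With 4 lists this is the smallest p this test can give, so neither difference could pass 0.05. By counting error alone, the ratio of the 4 merged regions to those of the flanks was 0.93 (95% exact interval 0.245 to 2.50), and to the rest of the genome 2.82 (0.769 to 7.23). Both intervals include 1. For the 1 consensus region the ratio was 0.429 (0.0105 to 2.56) to the flanks and 1.49 (0.0378 to 8.32) to the rest of the genome. These intervals include 1 as well. The sizes of the differences varied with the setting. With flanks of 2 Mb the difference from the flanks was -0.09 peaks per Mb, and with lists of equal length the difference from the genome was 0.338. In both settings the lists no longer all went the same way (same exact test, p = 0.625 and p = 0.5). Against the flanks this also held with flanks of 500 kb and at a −log10 q of at least 5 (same exact test, p = 0.375 and p = 0.5). It held too without the part of the HOXB window that holds HOXB13 (same exact test, p = 0.75). Against the genome it held at a −log10 q of at least 5 (same exact test, p = 0.25).

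Cluster by cluster, HOXB was below its flanks in 4 of 4 lists, by a mean of -4.17 ± 2.66 peaks per Mb (SD). HOXA and HOXD were below theirs in 3 lists each, by -1.25 ± 1.04 and -0.50 ± 0.41, and tied at 0 in the remaining list. HOXC was above its flanks in 3 of 4 lists, by 2.92 ± 2.35, and below them in replicate 3. With lists of equal length the HOXC difference was 0.292, and with flanks of 2 Mb it was 5.17. None passed (exact sign-flip permutation test with Benjamini-Hochberg adjustment over the 4 clusters, p = 0.25 for each, a test that cannot pass at this size). At the density of its chromosome, HOXA would hold 0.281 merged regions and HOXD 0.173, so a count of 0 in them is not distinguishable from that density. A count of 0 allows up to 30.7 peaks per Mb in HOXA and 33.5 in HOXD (upper ends of two-sided 95% exact Poisson intervals, counting error only). At the density of its flanks, HOXB would hold 2.90 merged regions and HOXC 1.62, against 2 found in each.

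**Figure D4:**
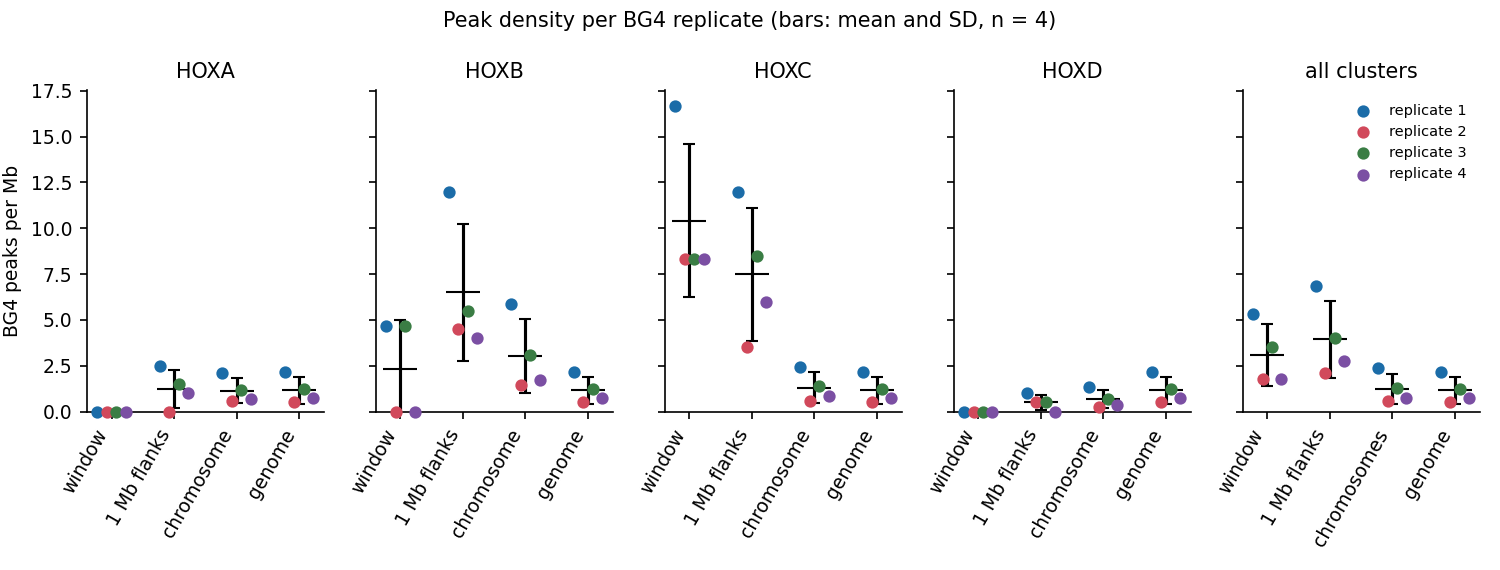
BG4 peaks per Mb in each HOX window, in the 1 Mb either side, on the chromosome and over the genome, with 1 point per replicate and bars for mean and SD (n = 4). HOXC is the densest window in all 4 replicates, and the flanks of HOXB and HOXC lie above those of HOXA and HOXD.

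Among the clusters, HOXC had the highest density in 4 of 4 lists, although in replicates 2, 3 and 4 that rested on the region shared by all lists alone. In replicate 3, HOXB and HOXC held 1 peak each, and HOXC was denser there (8.33 against 4.65 per Mb) only through its shorter window. The mean of HOXC was 10.4 ± 4.17 peaks per Mb, against 2.33 ± 2.69 in HOXB and 0 in HOXA and HOXD (SD, n = 4). The spread between cluster means, an SD of 4.94 peaks per Mb, passed an exact permutation test that exchanged the cluster names within each list (p = 0.00521 over 13824 arrangements). That test asks whether the lists favour the same cluster, and 1 region found repeatedly on the same input is enough to pass it. The HOXB peaks of replicates 1 and 3 also lowered the p, though they are different regions and HOXB is the longest window. Without replicate 1 or without replicate 3 the p was 0.0625, the smallest the test could then give, so neither run could pass. With lists of equal length the p was 0.25, and not all 4 lists kept a HOXC peak.

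Genes that work with the HOX factors or act on the clusters were searched for the same promoter motif. Of the homeodomain cofactors, PBX2 and MEIS2 held it, out of 6 with a promoter in the table. Of 4 regulators of the clusters, EZH2 and SUZ12, subunits of the Polycomb complex that silences them, and KMT2A, a Trithorax methyltransferase that keeps them active, held it, and EED did not. Of 4 non-coding RNAs of the clusters, HOTTIP, at the HOXA13 end of HOXA, held it. Over all promoters the share was 25.0%, and these groups are too small to be set against it. These counts describe sequence alone and were not set against peaks.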

How the data were processed

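LNCaP chromatin was fixed and pulled down with BG4 in 4 replicates, grouped by title with 1 input. Per the submitters' processing notes, the tools were MACS2 2.1.1, SAMtools 1.11, Bowtie2 2.2.5 and bcl2fastq 1.8.4, on the hg19 build. Their settings were not known here. The deposited data are narrow peaks, listed replicate by replicate, with a deposited score (not used here), fold over background, −log10 p and −log10 q.

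Summit reads were recovered from the deposited fold and −log10 p by the formulas of MACS2. A whole number of reads fitted every peak within 0.001. The 22 autosomes, X and Y were analysed, and peaks overlapping by at least 1 bp were merged. Genome and chromosome lengths run from the first to the last peak and include assembly gaps. Merging returned 100% of 500 planted sites, and read recovery 100% of 969 simulated summits. Positions are 1-based. No genome of hg19 was used, so peaks were not assigned to genes or searched for motifs. Some promoters and genes of the fixed lists are not reported here. All regions in the windows and the nearest outside were named. The windows, gene lists and tests were chosen with earlier results of these data known. Alternatives covered the q threshold, list length, replicates, flank size, overlap and the HOXB window. Tests were run with scipy 1.17.1 in Python 3.11.15, tables were handled with pandas 2.3.3 and numpy 2.4.6, and plots were drawn with matplotlib 3.10.9.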

Additional observations from a re-analysis of the deposited data

Results flagged for a closer look

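The density in HOXC was 16.7 peaks per Mb in replicate 1, far from the 8.33 of each of the other 3 replicates. The difference is 2 peaks against 1, and replicate 1 also has the longest list. Of 18 sets of 4 replicate values, this was the only one with a replicate so far from the rest, and in continuous values chance marks about 1 set in 20. These are small whole-number counts with ties, for which that rate was not tested. With lists of equal length, 1 merged region was left in the HOX windows, and it was a consensus region. The HOXC region of replicate 1 alone was therefore gone, and replicate 1 no longer had 2 peaks in HOXC. Whether list length alone made the difference was not tested.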

How the results depend on the processing

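No mean difference in density changed sign under any alternative run, although in several runs the lists no longer all went the same way. The tests against flanks and genome cannot pass with 4 lists or fewer, so an unchanged sign says little about stability. The sizes of the differences moved by over 1.5 times. Leaving aside covered bases, the differences in peaks per Mb ranged from -1.002 to -0.09 for the clusters against flanks, 0.338 to 2.23 against the genome, -1.67 to -0.50 for HOXA against its flanks, -5.28 to -2.05 for HOXB, 0.292 to 5.17 for HOXC and -1.19 to -0.25 for HOXD. With lists of equal length (1640 peaks each), the spread between cluster means was 2.08 peaks per Mb and no longer passed (exact permutation test, p = 0.25), 1 merged region was left in the HOX windows, the nearest summit to the HOXB13 start was 88452 bp away, and 0 peaks lay within 10 kb of it. With 1 replicate left out, the spread ranged from 3.98 to 5.35 peaks per Mb, merged regions from 2 to 4, the nearest summit from 5620 to 88435 bp and peaks within 10 kb from 0 to 1. Without replicate 1, the lower number of regions and the longer distance follow from its 2 single-list regions leaving. The consensus region in HOXC stayed at 1 under all alternatives run, but that count needs a peak in only 2 lists. With lists of equal length not all 4 lists kept a peak there, as the lower spread shows. Clusters were compared with flanks and genome within each list, but a pull-down could not be paired with an input, because only the pull-downs have peak lists. Depth limits all of this, since the windows hold 1 to 3 peaks per list and the weaker ones rest on 12 reads.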
